A study of Mus musculus with 30 samples.

Results

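Disease-associated and phagocytic microglia genes were followed as a set of 10 named genes, Itgax, Cst7, Cd68, Lyz2, Mpeg1, Cd84, Axl, Clec7a, Lpl and Gpnmb, out of 21412 genes measured in mouse hippocampus. All 10 symbols were found in the annotation of the genome build used for counting (NCBIM37). Hippocampus RNA came from 30 male BALB/c mice, 5 in each of 6 groups. For the groups without selenium, the study's methods give an arrival age of 2 to 3 weeks and, after acclimatization, 11 weeks of feeding. Ctr mice received unspiked feed, LD mice feed with 0.28 mg of methylmercury (MeHg) per kg and HD mice feed with 5 mg per kg. Se_Ctr, Se_LD and Se_HD mice are labelled as the same 3 exposures with added selenium, which the series title gives as dietary selenium-methionine. The amount of selenium, and whether the selenium groups had the same MeHg content, feeding period and age, are not given in the sources used here. The labels name no transgene or mutation in any group. The members were chosen by their HD against Ctr differences, known from earlier results, so those values, and the calls counted from them, are a description from which nothing is read. Comparisons among Se_Ctr, Se_LD and Se_HD were tested in fits without the HD and Ctr mice. Se_LD against LD was fitted both with all 30 mice and in the 10 mice of these groups alone, and the first of these fits takes its error in part from the HD and Ctr mice.

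Microglia are the resident macrophages of the brain. In the undisturbed brain they express a homeostatic programme that includes P2ry12, Tmem119 and Cx3cr1. Around dying neurons, myelin debris and protein deposits they take on a state known as disease-associated, in which receptors for damaged material, lysosomal proteins and lipid-handling enzymes are expressed at higher levels. In the set, Itgax (CD11c, an integrin alpha chain), Clec7a (dectin-1, a lectin receptor that signals for phagocytosis), Axl (a receptor tyrosine kinase that binds apoptotic cells through Gas6) and Cd84 (a self-binding receptor of the SLAM family) sit at the cell surface. Cd68 (a lysosomal membrane glycoprotein), Lyz2 (lysozyme), Cst7 (cystatin F, an inhibitor of lysosomal cysteine proteases), Mpeg1 (perforin-2, a pore-forming protein of phagocytes) and Gpnmb (a glycoprotein of lysosomes and related organelles) belong to the degradative side. Lpl encodes lipoprotein lipase, which releases fatty acids from lipoproteins and is also expressed by neurons.

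Promoter sequences are shown for Itgax, Cd84, Cd68 and Clec7a, because among the members matched only these hold one of the 4 motifs searched. Of the 10 members, 9 were matched by symbol to the RefSeq promoter table (GRCm38.p6) and Lpl was not. Clec7a has a pair of start sites there, which made 10 promoters. In the 250 bases before each start site, 4 motifs were searched on both strands: TGANTCA (AP-1), GAGGAAGT (the ETS-type core of PU.1), the ETS-IRF composite (GGAA, any base, T, then GAAA) and CACGTG (E-box). No pair of these overlapped in a member. The AP-1 letters, shown in capitals in the first 3 sequences, begin 56 bases before the start of Itgax at chr7:128129300-128129549 on the plus strand, 229 bases before that of Cd84 at chr1:171839447-171839696 on the plus strand, and 149 and 24 bases before that of Cd68 at chr11:69666171-69666420 on the minus strand. The ETS-IRF composite, in capitals in the last sequence and lying on the other strand, begins 66 bases before the start of Clec7a at chr6:129472780-129473029 on the minus strand. AP-1 letters were present in 6.75% of all 32851 promoters of this length, the composite in 0.594%, the PU.1 core in 2.44% and the E-box in 6.02%, and no member held either of the last pair. A match is a run of letters in this window and was not tested for binding.
Itgax: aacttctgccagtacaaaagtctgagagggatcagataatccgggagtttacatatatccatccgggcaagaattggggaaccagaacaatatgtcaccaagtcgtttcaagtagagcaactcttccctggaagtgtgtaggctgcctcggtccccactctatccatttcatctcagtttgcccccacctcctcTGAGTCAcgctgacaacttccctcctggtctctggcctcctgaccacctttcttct
Cd84: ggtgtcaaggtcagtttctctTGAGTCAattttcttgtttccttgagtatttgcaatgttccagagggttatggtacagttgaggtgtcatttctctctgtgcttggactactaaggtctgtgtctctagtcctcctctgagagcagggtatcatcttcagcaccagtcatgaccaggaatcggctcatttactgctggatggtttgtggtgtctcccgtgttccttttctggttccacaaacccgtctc
Cd68: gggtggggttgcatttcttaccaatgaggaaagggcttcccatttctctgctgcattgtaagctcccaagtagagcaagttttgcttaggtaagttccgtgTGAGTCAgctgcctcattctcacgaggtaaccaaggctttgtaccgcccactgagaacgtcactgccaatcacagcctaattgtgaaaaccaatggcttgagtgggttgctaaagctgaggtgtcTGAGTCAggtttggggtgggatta
Clec7a: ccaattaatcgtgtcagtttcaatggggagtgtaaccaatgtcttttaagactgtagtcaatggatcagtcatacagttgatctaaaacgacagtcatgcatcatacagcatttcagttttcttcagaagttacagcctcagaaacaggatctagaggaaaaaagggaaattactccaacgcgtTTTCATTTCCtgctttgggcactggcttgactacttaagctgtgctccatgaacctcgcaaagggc

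Each library held between 5768208 and 11510521 reads assigned to genes. Group medians were 7119788 in Ctr, 8185465 in LD, 10159514 in HD, 9873274 in Se_Ctr, 9600570 in Se_LD and 9406503 in Se_HD. Values are normalized counts, that is, reads divided by one size factor per library. Markers of hippocampal neurons were present in every group: Prox1 of dentate granule cells had a mean of 825 ± 276 (SD, n = 5) in Ctr, Wfs1 of CA1 1499 ± 441 and Neurod6 of pyramidal cells 2005 ± 203. Csf1r, the growth factor receptor on which microglia depend, had a mean of 700.4 ± 39.6 in Ctr. Per kb of exon, the Ctr means of the members ran from 180.0 for Lpl through 79.8 for Axl, 63.8 for Mpeg1, 53.5 for Lyz2 and 45.9 for Cd68 to 3.85 for Gpnmb, 2.30 for Clec7a, 1.91 for Cst7, 1.32 for Cd84 and 0.524 for Itgax. The members therefore formed an abundant group of 5 and a scarce group of 5 in unexposed hippocampus, and in the scarce group a few reads decide a value.

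**Figure D1:**
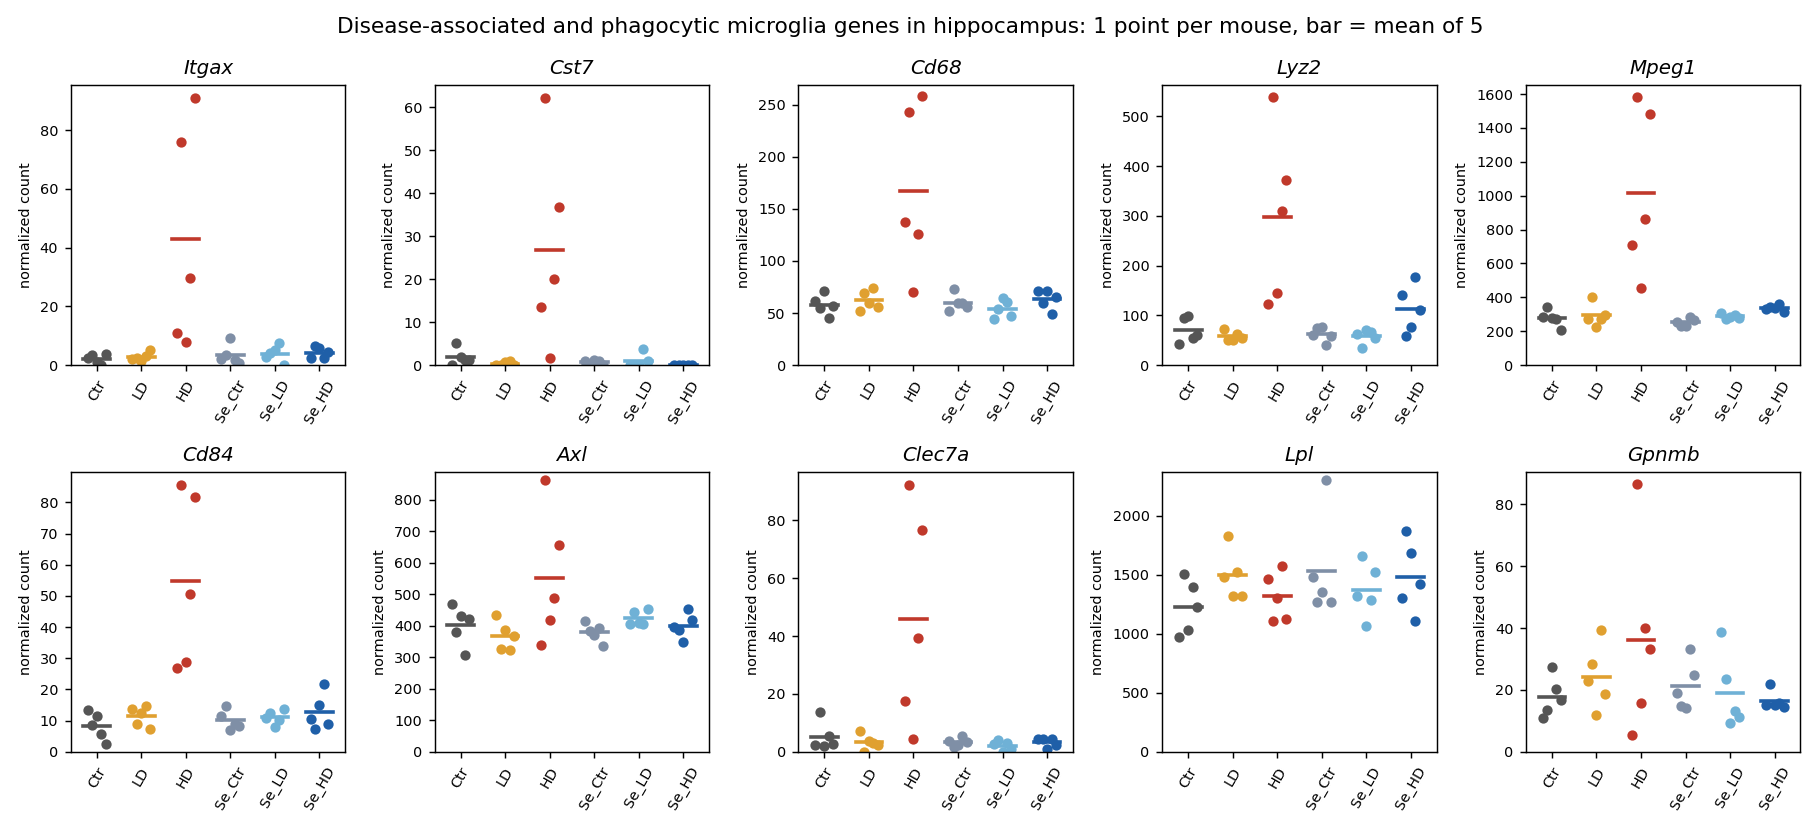
Normalized count of each of the 10 members (linear axis from 0) in the 6 groups; each point is 1 mouse and each bar the mean of 5. For Itgax, Cst7, Cd68, Lyz2, Mpeg1, Cd84 and Clec7a the HD points spread upward from the other groups, while Lpl covers a similar range in all 6.

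In HD mice, 8 of the 10 members were higher than in Ctr at an unadjusted p under 0.05, against 5.08% of all 20031 genes tested, and 5 (Cd68, Cd84, Itgax, Lyz2 and Mpeg1) passed an adjusted p under 0.05, against 0.130%. In 4 members (Cd84, Itgax, Lyz2 and Mpeg1) the lowest HD mouse exceeded the highest Ctr mouse, which held for 0.978% of all genes. These counts describe the values by which the genes were chosen, and nothing is read from them. The count of 5 was 3 without Ctr replicate 3, HD replicate 2 or HD replicate 4, 1 without Ctr replicate 4 or HD replicate 5, 7 without HD replicate 3, and 7 with edgeR or DESeq2. It was 0 without the variance trend and 3 with a pseudocount of 10. The log2 fold changes on the scale of log2(normalized count + 1) were 3.46 for Itgax, 2.90 for Cst7, 2.61 for Clec7a, 2.58 for Cd84, 1.93 for Lyz2, 1.75 for Mpeg1, 1.38 for Cd68, 0.57 for Gpnmb, 0.40 for Axl and 0.11 for Lpl, with a median of 1.84 against 0.01 over all genes. In bulk tissue, fewer or more cells of a type and less or more RNA per cell cannot be told apart.

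Among the surface receptors, Itgax (ENSMUSG00000030789, chr7:135273061-135294171) gave 2.42, 3.40, 0.945, 0 and 3.84 normalized counts in the 5 Ctr mice and 10.8, 75.9, 7.85, 29.7 and 90.8 in the 5 HD mice. Every HD mouse lay above every Ctr mouse, and HD replicates 2 and 5 stood far above HD replicates 1 and 3. Its LD values of 2.09, 2.58, 1.48, 2.97 and 4.98 overlapped Ctr. With selenium, the values were 1.90, 3.46, 9.38, 1.79 and 0.827 in Se_Ctr and 2.71, 4.18, 5.27, 7.39 and 0 in Se_LD. Se_HD mice gave 2.29, 6.36, 5.67, 2.28 and 4.49. All 3 selenium groups thus overlapped each other, and the highest Se_HD mouse lay below the lowest HD mouse.

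Clec7a (ENSMUSG00000079293, chr6:129411611-129422790) gave 2.42, 13.6, 1.89, 5.63 and 2.56 in Ctr and 17.5, 92.2, 4.36, 39.4 and 76.7 in HD. HD replicate 3 fell inside the Ctr range and the other 4 HD mice lay above it. LD mice gave 7.32, 0, 3.70, 2.97 and 2.49, within the Ctr spread apart from the mouse at 0. With selenium, Clec7a stayed below 6 normalized counts in all 15 mice, between 1.73 and 5.38 in Se_Ctr, between 0 and 4.18 in Se_LD, and at 4.57, 4.54, 0.944, 4.55 and 2.25 in Se_HD.

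Cd84 (ENSMUSG00000038147, chr1:173769828-173820849) had no overlap between HD and any other group. Its values were 13.3, 8.51, 11.3, 5.63 and 2.56 in Ctr and 26.9, 85.7, 28.8, 50.6 and 81.7 in HD. The LD mice lay between 7.47 and 14.8, the Se_Ctr mice between 7.03 and 14.7, and the Se_LD mice between 7.91 and 13.9. Se_HD mice gave 10.7, 7.26, 15.1, 21.6 and 8.98, so the lowest HD mouse was above the highest mouse of each of the other 5 groups.

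Axl (ENSMUSG00000002602, chr7:26542292-26573724) moved least among the receptors. Ctr mice gave 468, 379, 429.9, 309 and 422 and HD mice 340.3, 862, 417, 489.5 and 656. HD replicates 1 and 3 fell within the Ctr range and the other 3 lay above it. Its means were 368 ± 45.9 (SD, n = 5) in LD, 380.5 ± 30.0 in Se_Ctr, 424 ± 23.3 in Se_LD and 401 ± 39.0 in Se_HD.

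On the degradative side, Mpeg1 (ENSMUSG00000046805, chr19:12535269-12539774) gave the most reads of the members that separated HD from Ctr. Ctr mice gave 284, 340.3, 277, 272 and 209.7, LD mice 274, 402, 227, 272 and 297, and HD mice 706, 1585, 457, 862 and 1480.0. Every HD mouse was above every Ctr and LD mouse. With selenium, Se_Ctr mice gave 252, 232, 229.7, 285 and 266, Se_LD mice 307, 271, 286, 297 and 279.5, and Se_HD mice 332, 344, 339, 361 and 311. All 5 Se_HD mice thus lay above all 10 mice of the other 2 selenium groups and below all 5 HD mice.

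Lyz2 (ENSMUSG00000069516, chr10:116714390-116719377) gave 42.3, 95.3, 99.2, 54.1 and 60.1 in Ctr and 124, 538, 146, 309 and 372 in HD, without overlap. LD values ran from 50.2 to 73.2. With selenium it gave 60.8, 74.3, 77.4, 40.3 and 58.7 in Se_Ctr, 63.2, 33.5, 71.2, 67.2 and 54.6 in Se_LD, and 140.3, 59.0, 77.4, 176 and 111 in Se_HD. In Se_HD, 4 of the 5 mice stood above all Se_Ctr mice, 1 of them by a narrow margin, and the Se_HD range reached into the HD range.

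Cd68 (ENSMUSG00000018774, chr11:69477715-69479655) gave 61.6, 54.5, 70.9, 45.1 and 56.3 in Ctr and 137, 243, 69.8, 125 and 258 in HD. HD replicate 3 lay inside the Ctr range, and the other 4 HD mice lay above every mouse of the other groups. The 15 selenium mice lay between 44.2 and 72.6, with means of 60.02 ± 7.75 (SD, n = 5) in Se_Ctr, 54.0 ± 8.62 in Se_LD and 63.1 ± 9.15 in Se_HD.

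Cst7 (ENSMUSG00000068129, chr2:150396151-150404680) was close to absent outside HD. Ctr mice gave 0, 5.10, 1.89, 1.13 and 1.28, LD mice 0, 0, 0.741, 0.989 and 0, and HD mice 13.4, 62.0, 1.75, 20.1 and 36.7. HD replicate 3 again lay inside the Ctr range. Its selenium values were 0.950, 0, 1.17, 0.896 and 0 in Se_Ctr and 0, 0, 0, 3.69 and 0.926 in Se_LD. No read was counted in any of the 5 Se_HD mice, in 45304112 reads on genes. Against a floor of 3 reads over these 5 libraries (0.572 normalized counts), the HD mean of 26.8 was at least 46.8-fold higher, and this floor covers counting error only.

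Gpnmb (ENSMUSG00000029816, chr6:48986517-49020928) showed no clear order. Ctr mice gave 10.9, 13.6, 27.4, 20.3 and 16.6 and HD mice 5.38, 86.5, 15.7, 40.2 and 33.3. Of the HD mice, 1 lay below and 3 lay above all Ctr mice. The Se_HD mice were close together, at 15.2, 21.8, 15.1, 15.9 and 14.6, and the Se_Ctr mice lay between 14.1 and 33.2. Lpl (ENSMUSG00000015568, chr8:71404390-71431347), the lipid enzyme of the set, gave 977, 1509, 1029, 1398 and 1224 in Ctr and 1463, 1112, 1304, 1577 and 1128 in HD, which overlapped throughout. Its highest value of all 30 mice was 2308 in Se_Ctr replicate 4.

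As a description of the HD mice, which chose the members, HD replicates 2 and 5 were the 2 highest HD mice in 8 members (Itgax, Cst7, Cd68, Lyz2, Mpeg1, Cd84, Axl and Clec7a), as in 13.1% of all genes. Lpl and Gpnmb did not have this order: Lpl was lowest in HD replicate 2 and highest in HD replicate 4, and Gpnmb was highest in HD replicates 2 and 4. HD replicate 3 was the lowest HD mouse in 5 members and HD replicate 1 in 4. The mean log2 difference of the 10 members from the Ctr mean was 1.04, 2.80, 0.60, 1.91 and 2.49 in HD replicates 1 to 5. Replicate numbers are names only, so these values have no order. Across the 5 Se_HD mice the same mean, taken from Se_Ctr, lay between 0.04 and 0.20, inside the range of -0.20 to 0.14 for Se_Ctr itself apart from Se_HD replicate 4. HD had the widest SD of log2(normalized count + 1) of the 6 groups in 8 of the 10 members. The exceptions were Cd84, at 0.779 in HD and 0.803 in Ctr, and Lpl, at 0.223 in HD and 0.361 in Se_Ctr. The SD in HD was 1.53 for Itgax, 1.73 for Cst7 and 1.69 for Clec7a, where the median over genes averaging 10 normalized counts or more was 0.241.

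**Figure D2:**
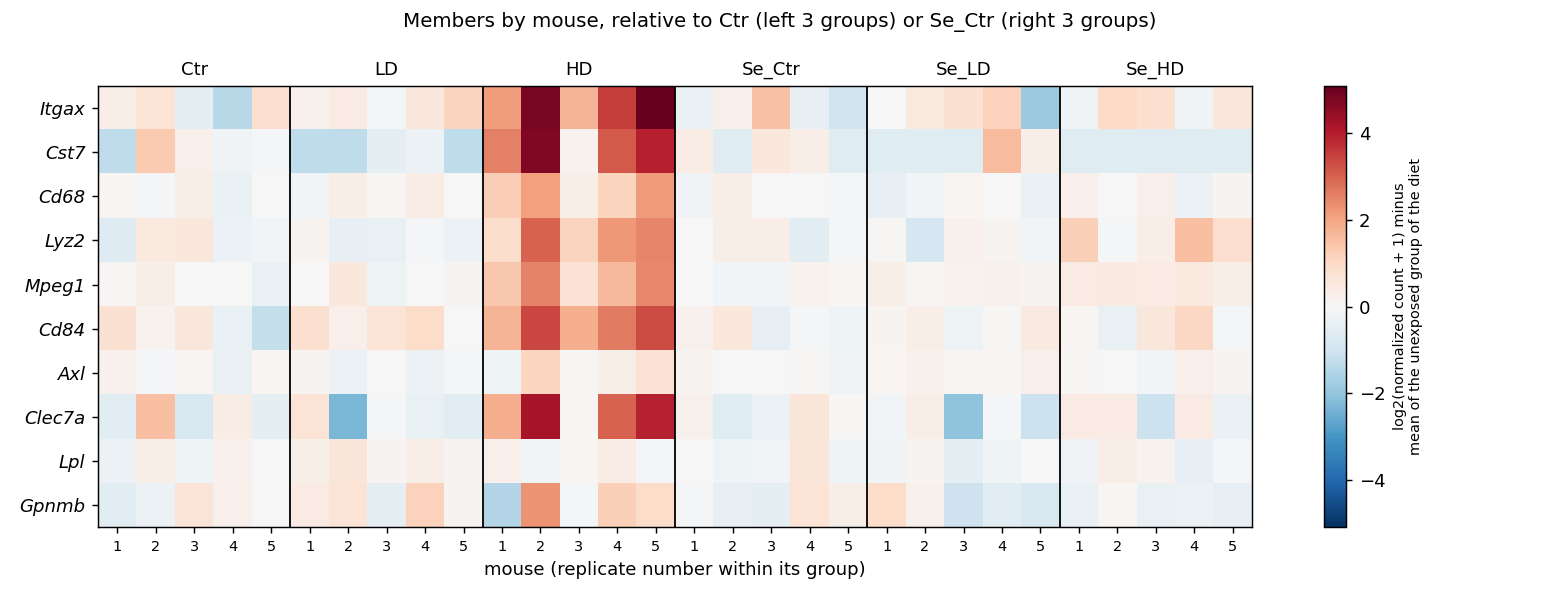
Each cell is 1 member in 1 mouse, coloured by log2(normalized count + 1) minus the mean of Ctr for the left 3 groups or of Se_Ctr for the right 3. Red is concentrated in HD replicates 2, 4 and 5, whose means over the 10 members were 2.80, 1.91 and 2.49, and the Se_HD columns stay pale (0.04 to 0.20).

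The low dose gave no member past an adjusted p under 0.05 in LD against Ctr (0.00% of all genes), nor with edgeR or DESeq2. At an unadjusted p under 0.05 it gave Lpl alone, 0.29 higher on the log2 scale, where 3.01% of all genes were past this limit. Lpl had means of 1495 ± 209 (SD, n = 5) in LD and 1227 ± 230 in Ctr. The median difference of the members was 0.10, against 0.01 over all genes. LD against Ctr shares the Ctr mice with the comparison that chose the members, and these values, Lpl included, are descriptions. HD against LD, which shares the HD mice with the comparison that chose the members, gave 3 members past an adjusted p under 0.05 (Cst7, Lyz2 and Mpeg1; 0.0499% of all genes) and 5 without overlap (Cd84, Cst7, Itgax, Lyz2 and Mpeg1; 0.869%). The count of 3 was 0 without the variance trend, 2 with a pseudocount of 0.1, 7 with edgeR, DESeq2 or all 30 libraries in one fit, 5 without HD replicate 1 and 7 without HD replicate 3. It was also 2 without each of LD replicates 1, 2 and 5 and of HD replicates 2, 4 and 5. These counts are descriptions.

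Selenium without mercury gave no member past either limit in Se_Ctr against Ctr (0.00% and 4.00% of all 21383 genes), nor any at the adjusted limit with edgeR or DESeq2, with a median difference of -0.002. This comparison shares the Ctr mice with the one that chose the members, so its counts are descriptions. At the low dose, Se_LD against LD gave no member past the adjusted limit in the fit of all 30 mice (0.00% of all genes, and no member with edgeR or DESeq2) or the unadjusted one (2.86%), with a median of -0.03. HD and Ctr mice enter the error of that fit, so the comparison was repeated in the 10 LD and Se_LD mice alone, an alternative chosen after seeing the data. Of 9 members tested there (Cst7 was too scarce), none passed the adjusted limit (0.00% of 18854 genes). Axl alone passed the unadjusted limit (2.53%), at means of 424 in Se_LD and 367.8 in LD, with a log2 difference of 0.21 (95% interval from 0.01 to 0.42, adjusted p = 1 with limma, exact permutation p = 0.0556). The limma 95% intervals in these 10 mice ran from -0.27 to 0.26 for Mpeg1, from -0.47 to 0.39 for Lyz2 and from -0.97 to 1.22 for Itgax. The intervals of the scarce members were wide.

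With selenium in the feed, the high dose gave small differences, of which those of Mpeg1 and Lyz2 passed an unadjusted p under 0.05. In Se_HD against Se_Ctr, 9 members could be tested, since Cst7 had under 10 normalized counts in total over the 15 selenium mice. No member had an adjusted p under 0.05 with limma, nor did any of the 19679 genes (0.00%), of which the lowest adjusted p was 0.0979. Mpeg1 and Lyz2 were higher at an unadjusted p under 0.05, 2 of 9 members where 2.43% of all genes were. edgeR's quasi-likelihood test called no member and no gene, and DESeq2 called 4 genes, Mpeg1 among them.

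Mpeg1 had a mean of 337.5 ± 18.2 (SD, n = 5) in Se_HD and 252.7 ± 23.3 in Se_Ctr, a ratio of 1.34. The log2 difference was 0.42 with a limma standard error of 0.075, a 95% interval from 0.26 to 0.57, an unadjusted p of 1.57e-05 and an adjusted p of 0.155. Over the alternatives its adjusted p lay between 0.00389 (DESeq2) and 1, and without Se_Ctr replicate 4 it was 0.0383. All 5 Se_HD mice lay above all 5 Se_Ctr mice, as did 0.478% of all genes, and the exact two-sided permutation p was 0.00794, the smallest that 5 against 5 can give. The value thus exceeded the spread between the selenium mice but not the adjustment over all genes in the test chosen. The permutation p was not adjusted over the members. Without selenium, the highest Ctr mouse was at 340.3, inside the Se_HD range of 311 to 361, and the highest LD mouse at 402, above it.

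Lyz2 had a mean of 113 ± 47.3 in Se_HD and 62.3 ± 14.7 in Se_Ctr, a ratio of 1.81. The log2 difference was 0.78 with a 95% interval from 0.24 to 1.31, an unadjusted limma p of 0.00651, an adjusted p of 1 and an exact two-sided permutation p of 0.0476, with 4 of 5 mice above the Se_Ctr median. The other tested members lay on both sides of 0. Their limma 95% intervals ran from -0.68 to 1.51 for Itgax, -0.35 to 0.86 for Cd84, -0.24 to 0.37 for Cd68, -0.09 to 0.23 for Axl, -0.96 to 0.90 for Clec7a, -0.36 to 0.28 for Lpl and -0.95 to 0.39 for Gpnmb. The median of the 9 members was 0.07, against -0.01 over all genes.

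At the unadjusted limit, the step from Se_LD to Se_HD gave the same pair of genes, and that from Se_Ctr to Se_LD gave Mpeg1 alone. The first shares the Se_HD mice with Se_HD against Se_Ctr, and the second shares its Se_Ctr mice. They are therefore not separate observations. Se_HD against Se_LD had no member past the adjusted limit with limma, edgeR or DESeq2 (0.00% of all genes) and 2 members past an unadjusted p under 0.05, against 4.94% of all genes: Lyz2 at 0.89 (adjusted p = 0.834 with limma, exact permutation p = 0.0397) and Mpeg1 at 0.23 (adjusted p = 0.899 with limma, exact permutation p = 0.00794). All Se_HD mice were above all Se_LD mice for Mpeg1 (0.335% of all genes). Se_LD against Se_Ctr had no member past the adjusted limit with any of the 3 tools (0.00%) and 1 past the unadjusted one (3.31%), Mpeg1 at 0.19 (adjusted p = 1 with limma, exact permutation p = 0.0238). Axl, at means of 424 in Se_LD and 380.5 in Se_Ctr, had an exact permutation p = 0.0317 and did not pass the unadjusted limit with limma (adjusted p = 1).

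**Figure D3:**
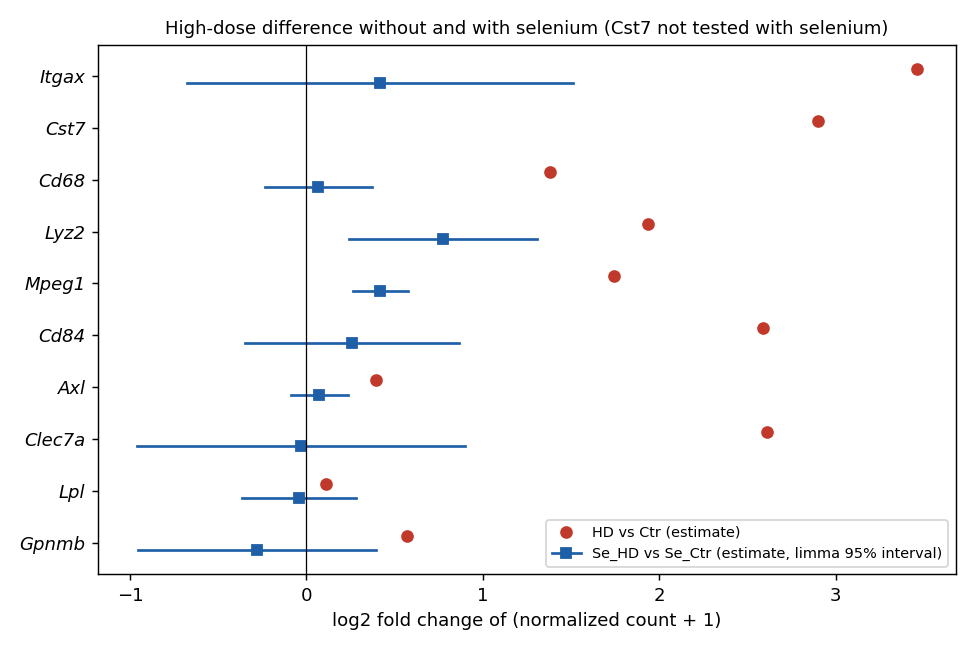
Log2 fold change of each member between the high dose and the unexposed group of the same diet. Red points are HD against Ctr, a description without an interval because it chose the genes; blue squares with bars are Se_HD against Se_Ctr with limma 95% intervals. For the 9 members with both, the red points run from 0.11 (Lpl) to 3.46 (Itgax) and the blue squares from -0.28 (Gpnmb) to 0.78 (Lyz2); no test compares the red with the blue.

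Set beside each other, the high-dose differences without and with selenium were 3.46 and 0.42 for Itgax, 2.61 and -0.03 for Clec7a, 2.58 and 0.26 for Cd84, 1.93 and 0.78 for Lyz2, 1.75 and 0.42 for Mpeg1, and 1.38 and 0.07 for Cd68. For Gpnmb they were 0.57 and -0.28, for Axl 0.40 and 0.07, and for Lpl 0.11 and -0.04. The difference between the diets was not tested, because the HD mice took part in the choice of the members. Se_HD mice had 10.2-fold fewer normalized counts than HD mice for Itgax, 13.7-fold fewer for Clec7a, 4.30-fold fewer for Cd84, 3.02-fold fewer for Mpeg1, and 2.64-fold fewer for Lyz2 and for Cd68. For Cd84, Cst7, Itgax and Mpeg1 every Se_HD mouse was below every HD mouse (4 of 10 members, against 0.903% of all genes), and 6 members passed an adjusted p under 0.05 (0.327%). The count of 6 was 3 without HD replicate 2, 4 without HD replicate 5, Se_HD replicate 3 or Se_HD replicate 5, 4 with a pseudocount of 0.1, with a mean of at least 10 as the filter or without the variance trend, and 7 with edgeR or DESeq2. These counts too describe the mice that chose the members.

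Other microglial genes were listed from the same biology, with earlier results of these data known. The HD against Ctr counts of these and the following lists come from the mice that chose the members and are descriptions. Of 12 homeostatic microglial genes, 10 were higher in HD than in Ctr at an unadjusted p under 0.05 (5.08% of all genes) and 1 at an adjusted p under 0.05 (0.125%), Csf1r, at 1217 ± 376 against 700.4 ± 39.6 (n = 5 each; log2 difference 0.74, adjusted p = 0.0497 with limma). The median difference of this list was 0.68, and its summed level was 3527, 6409, 3455, 4477 and 6149 in HD replicates 1 to 5 against 2795 to 3143 in Ctr. HD replicates 2 and 5 were thus the highest here as well. In Se_HD against Se_Ctr, 1 of the 12 (Sall1, a microglial transcription factor, 0.21 higher, adjusted p = 1 with limma) was past the unadjusted limit, where 2.43% of all genes were, and the summed levels of 2999 to 3487 and 2682 to 3566 overlapped.

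Of 25 other disease-associated microglial genes, 18 were higher in HD than in Ctr at the unadjusted limit (5.08% of all genes) and 3 at the adjusted one (0.125%). The 3, named after their values were seen, were Tyrobp (the signalling adaptor of Trem2), Ccl3 and Ccl4 (chemokines). Ccl4 was at 0 in all 5 Ctr mice and reached the minimum for testing only through the HD mice, so its call is a description. The median was 0.85. Spp1, which encodes osteopontin, had a mean of 644 in HD with a range of 33.1 to 2821, and of 31.8 ± 17.6 in Ctr. The highest HD mouse carried most of the HD mean. Cd63, a tetraspanin of late endosomes, had means of 900 ± 480 in HD and 367 ± 63.6 in Ctr (log2 difference 1.17, adjusted p = 0.0695 with limma). In Se_HD against Se_Ctr, 24 of these genes could be tested and Spp1 alone passed the unadjusted limit (2.43% of all genes), at 39.9 ± 21.3 against 20.6 ± 7.96 (0.85, adjusted p = 1 with limma), and the list's median was 0.13.

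Among 22 phagocytosis receptors, bridging molecules and partners, 12 were higher in HD than in Ctr at the unadjusted limit (5.08% of all genes) and 1 at the adjusted limit (0.125%), Fcer1g, the signalling chain of Fc receptors, at 69.8 ± 41.9 against 18.9 ± 6.72 (named after its value was seen). Pros1, a bridging ligand of the receptor family of Axl, was among the 12, at 0.82 on the log2 scale. Gas6, the ligand of Axl, was not, with a log2 difference of 0.23, nor were Tyro3 and Mertk, the other receptors of the family, at -0.17 and -0.06. Fcgr1, a high-affinity Fc receptor, had means of 105 ± 62.6 in HD and 52.7 ± 5.61 in Ctr, and Dock2, a regulator of the leukocyte cytoskeleton, 54.8 ± 32.9 and 23.6 ± 8.69. With selenium the high dose gave 1 of the 22 past the unadjusted limit, Lamp2, a lysosomal membrane protein (0.26, adjusted p = 1 with limma), a share near the 2.43% of all genes. Cd36, a scavenger receptor, had means of 26.5 ± 7.83 in Se_HD and 17.8 ± 3.07 in Se_Ctr (log2 difference 0.51, adjusted p = 1 with limma). Of 6 tested partners of lipoprotein lipase, none passed either limit in HD against Ctr, with a median of -0.002, as Lpl itself lay close to 0. In Se_HD against Se_Ctr 7 partners were tested, and 1 passed the unadjusted limit, Gpihbp1, which holds the lipase on the capillary wall (named after its value was seen). Gpihbp1 lay between 0.944 and 4.55 normalized counts in Se_HD and between 0 and 1.17 in Se_Ctr, a log2 difference of 1.34 (adjusted p = 1 with limma). At this level a few reads decide a value, and the Se_HD mice helped bring Gpihbp1 to the minimum for testing. Its call is therefore a description. Among the others the differences were 0.42 for Angptl4, an inhibitor of the lipase, -0.11 for Lmf1, which it needs for folding, and 0.07 for the lipoprotein receptor Vldlr.

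The genes whose values over the mice were most like the mean of the members, after the group means were subtracted, were Inpp5d (Pearson r = 0.877), Lcp1 (0.872), Gfap (0.860), Parp9 (0.860) and Cd180 (0.851), among 14288 genes and over 30 mice. Before subtraction, the 5 most alike were Gfap, Lcp1, Ctss, Ctsd and C1qa, but their r over all mice is not given, since HD mice stood apart from the other 5 groups. Subtraction leaves the spread between mice, which was widest in HD for most members (for Mpeg1 an SD of 0.751 in HD and 0.301 in LD, the next widest). The r after subtraction therefore also weight the HD mice, which chose the members, more than the others. All these likenesses, those among the members included, are descriptions over mice that share libraries and normalization. Among the members, and after the same subtraction, Cd68 and Mpeg1 were most like each other (0.717), as were Cst7 and Clec7a (0.657) and Cd84 and Axl (0.593). Lpl was least like the rest, with a median r of -0.17 with the other 9.

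Gfap, the intermediate filament of reactive astrocytes, put the 5 HD mice in the same order as the mean of the members did. It gave 5143, 32820, 4080, 7281 and 12450 in HD replicates 1 to 5 against 1430 to 1988 in Ctr. In Se_HD it lay between 2264 and 2909, above the Se_Ctr range of 1596 to 2165 (log2 difference 0.51, adjusted p = 0.728 with limma). Of the other astrocyte genes listed, Aqp4 had means of 3665 in HD, where single mice ran from 1529 to 9364, and 1477 ± 175 in Ctr, and Gja1 5351 ± 649 and 4395 ± 674.

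**Figure D4:**
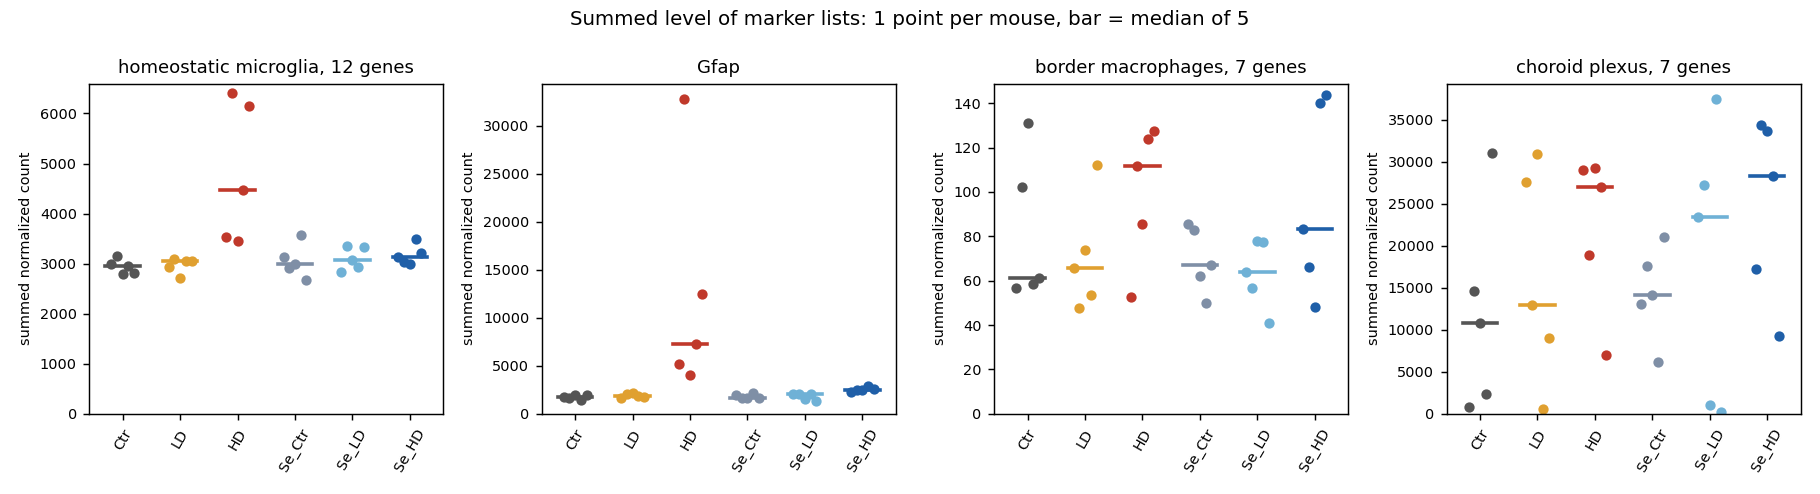
Summed normalized count per mouse of 12 homeostatic microglial genes, of Gfap alone, of 7 border macrophage genes and of 7 choroid plexus genes, by group; bars are medians of 5. Gfap in every HD mouse (4080 to 32820) lies above all other mice. The homeostatic sums of HD (3455 to 6409) lie above Ctr and LD but overlap Se_Ctr (up to 3566) and Se_HD (up to 3487), and border macrophage genes overlap in all 6 groups.

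Markers of other phagocytes and of neighbouring tissue were read beside the members, and their part in the results was not tested. Of 7 border macrophage genes, none passed either limit in HD against Ctr or in Se_HD against Se_Ctr. Their sum lay between 52.5 and 128 in HD and between 56.8 and 131 in Ctr, with Mrc1 at 35.2 ± 18.3 and 30.8 ± 17.2, F13a1 at 24.6 ± 5.30 and 21.8 ± 10.7, and Cd163 at 19.5 ± 9.47 and 11.8 ± 4.24. In Se_HD replicates 1 to 5 the sum was 83.1, 66.3, 48.2, 140.0 and 143.7, and in Se_Ctr it lay between 50.2 and 85.5. Mrc1 had means of 38.8 ± 13.8 in Se_HD and 26.4 ± 4.48 in Se_Ctr. Se_HD replicates 1, 4 and 5 were highest in this sum and also in Lyz2, and the part of this in the Lyz2 difference was not tested. Of the monocyte genes, Ly6c2 had means of 30.8 ± 9.18 and 21.7 ± 6.31 and Fn1, also made by other cells, 816 ± 574 and 554 ± 110, and none of 3 tested passed either limit in HD. Ccr2, their chemokine receptor, was higher in Se_HD than in Se_Ctr at the unadjusted limit, at 8.08 ± 2.80 against 3.38 ± 2.46 (adjusted p = 1 with limma). The sum of 6 neutrophil genes did not exceed 29.7 in any HD mouse or 22.8 in any Se_HD mouse. Only 2 of 7 lymphocyte genes were analysed here, and their sum did not exceed 8.50 in any mouse. Cd79a, a B cell receptor chain and the one of them tested in HD against Ctr, was higher in HD at the unadjusted limit, at 4.46 ± 0.904 against 2.42 ± 2.52 (log2 difference 0.96, named after its value was seen).

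Choroid plexus genes varied from mouse to mouse, and the sum of 7 of them ran from 807 to 30980 in Ctr, 6968 to 29210 in HD, 6170 to 21040 in Se_Ctr and 9297 to 34370 in Se_HD. Their medians over genes were 1.54 in HD against Ctr, with 1 of 7 past the unadjusted limit (Folr1, adjusted p = 0.598 with limma; 5.08% of all genes), and 0.74 in Se_HD against Se_Ctr. Of 6 fibroblast and vessel wall genes, Col1a1 (0.71), Col1a2 (0.84) and Lum (0.73) were higher in Se_HD than in Se_Ctr at the unadjusted limit (adjusted p = 1 with limma for each; 2.43% of all genes), in the comparison where Mpeg1 and Lyz2 were. Endothelial genes had a median of 0.08 in HD and -0.02 in Se_HD, with Flt1 past the unadjusted limit in Se_HD (0.16, adjusted p = 1 with limma), and Cldn5 and Ly6c1 at 243 ± 35.8 and 143 ± 29.7 in HD against 223 ± 45.1 and 121 ± 33.6 in Ctr. Erythrocyte genes had medians of -0.52 and -0.17 with none past either limit, and 6 neuronal genes -0.04 and -0.13 with none past either limit. The sum of the neuronal genes was 34870 in HD replicate 2, the lowest of all 30 mice, between 47590 and 51090 in Ctr, and 45040 in the next lowest mouse. HD replicate 2 was also the highest HD mouse in 7 members, and the part of this in the results was not tested.

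Compared with the protein-coding transcripts of other genes, the members were unique in nearly all positions. Other transcripts and the rest of the genome were not searched. Of the 75-base windows in the transcripts, 6.07% of those of Itgax were shared with Itgad and 5.97% of those of Lyz2 with Lyz1, 0.419% of those of Lpl were shared with other genes, and none was shared in the other 7 members. Itgad did not exceed 5.71 normalized counts in any HD mouse and Lyz1 did not exceed 1.63, against 7.85 to 90.8 for Itgax and 124 to 538 for Lyz2. No annotated gene overlapped a member on either strand.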

How the data were processed

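The authors made 1 stranded library per mouse from hippocampus RNA and read 75 bases from one end. Reads were trimmed with Trim Galore 0.4.2, mapped with HISAT2 to NCBIM37 and counted per gene with featureCounts. The deposited values are a normalized signal, that is, read counts of 21412 genes that the authors divided by 1 DESeq2 size factor per library. Undoing this factor gave whole reads for 100% of values, within 0.01 reads. Depth was 5768208 to 11510521 reads on genes per library.

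Groups were taken from the labels. The members and all gene lists were chosen with earlier results of these data known. Log2(value + 1) was fitted with limma 3.58.1 (R 4.3.3) with a variance trend, on genes with a sum of at least 10, in the 15 libraries of each diet, or in all 30 for comparisons between diets. p-values were adjusted by Benjamini-Hochberg over all genes tested. Exact permutation tests (scipy 1.17.1) compared 5 with 5 mice. No list received a test of its own.

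Besides the members, the rule for named genes took up to 3 genes per list with the largest absolute difference in Se_HD against Se_Ctr among genes averaging 10 normalized counts or more, and the 5 genes most alike by each measure of likeness. Some of the listed genes were not analysed here. Symbols came from GENCODE for NCBIM37 (21326 genes matched), and promoters from RefSeq (GRCm38.p6), whose coordinates were not joined to the counts. Alternatives were pseudocounts of 0.1 and 10, other filters, size factors within the fit, TMM factors, no variance trend, all 30 libraries in one fit, a library-number covariate, count tests of the recovered reads (DESeq2 1.42.0, edgeR 4.0.16), each mouse left out and, added after seeing the data, the LD and Se_LD libraries alone. The scripts were tested on simulated data.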

Additional observations from a re-analysis of the deposited data

Results flagged for a closer look

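In 3 of 59 groups of 5 mice with any spread, 1 mouse lay far from the other 4 for a member, by the ratio of its gap to the group's range (above Dixon's 95% value of 0.71). Chance flags about 1 in 20 groups, which is 2.95 of 59. Cst7 was 3.69 normalized counts in Se_LD replicate 4 and 0.926 in the next mouse (ratio 0.749). Lpl was 2308 in Se_Ctr replicate 4 and 1480.0 in the next mouse (ratio 0.799). Gpnmb was 21.8 in Se_HD replicate 2 and 15.9 in the next mouse (ratio 0.814). No HD mouse was flagged for any member.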

How the results depend on the processing

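No direction that was called reversed under any alternative. In HD against Ctr, the 5 members called with limma became 3 with a pseudocount of 10 and 0 without the variance trend (no gene was then called at all), and 1 to 7 when each mouse was left out in turn. edgeR and DESeq2 each called 7 members, of 45 and 196 genes against 26 with limma. In Se_HD against Se_Ctr, the 0 members called became 1 (Mpeg1, log2 difference 0.41, adjusted p = 0.00389) with DESeq2, and 0 to 1 when each mouse was left out, the 1 being Mpeg1 without Se_Ctr replicate 4 (0.46, adjusted p = 0.0383 with limma). With each mouse left out, the 6 members called in Se_HD against HD became 3 to 7 and the 3 in HD against LD 2 to 7, both descriptions. Median differences over the members with 1 mouse left out lay between 1.61 and 2.07 for HD against Ctr, 0.04 and 0.18 for Se_HD against Se_Ctr, and -1.61 and -1.16 for Se_HD against HD. The fitted change of Cst7 depended on the pseudocount: Se_HD against HD was -7.35 at 0.1 and -1.62 at 10. Among member differences, 2661 values under alternatives kept direction and side of the threshold or, in comparisons that are descriptions, moved by less than 1 SD of the wider group. A further 13 moved by more and 2 became stronger. That SD is wide for scarce members: with a pseudocount of 10 the HD against Ctr difference of Cst7 went from 2.90 to 1.39 and the Se_HD against HD difference of Clec7a from -2.94 to -1.74, both within it. A mean of at least 10 as the filter removed the scarce members from some fits, so that no value could be given. The labels give no replicate number shared between groups, but library numbers run in 5 sets of 6 with 1 mouse of every group in each. With this set as a block in the fit, 5 members were called in HD against Ctr and 0 in Se_HD against Se_Ctr, and the count of members called changed in HD against LD alone, from 3 to 4. For Itgax, Cst7 and Clec7a, with under 6 normalized counts on average outside HD, depth limits what the selenium comparisons can show.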
